A study of Mus musculus with 12 samples.

Results

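The circadian clock genes examined here were Per1, Per2, Per3, Cry1, Cry2, Arntl, Clock, Nr1d1, Nr1d2 and Dbp, measured in the septum of 12 female mice. They were chosen by gene symbol as the core loop of the mammalian clock, and each of the 10 was read by 1 transcript cluster (a set of probes for 1 transcribed stretch) among the 35556 in the table. The 6 lactating mice were taken on postpartum days 6 to 8, and the 6 virgin mice were age-matched, all being about 70 days old. Both groups came from 1 line selected for high maternal aggression, or maternal defense, out of outbred hsd:ICR stock. Lactating females had been housed with a breeder male, virgin females with other females, and all were then housed singly. Mating, pregnancy, birth, suckling and the presence of pups all separated the groups, so their contributions cannot be told apart. Each mouse gave 1 septum sample and 1 Affymetrix mouse gene array, with no pooling. Brains of both groups were removed in alternation within the same late-morning hours of a light-dark cycle. Each mouse therefore gave 1 time point, and the level of these genes at other times of day was not measured. The time at which each mouse was taken within those hours is not known here.

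In the mammalian clock, ARNTL (also called BMAL1) and CLOCK form a dimer that binds E-boxes in DNA and activates the Per and Cry genes, and the PER and CRY proteins accumulate and repress that dimer. In a further loop the nuclear receptors NR1D1 and NR1D2 (REV-ERB alpha and beta) repress Arntl, while DBP activates genes through D-boxes. Most tissues, including brain regions outside the suprachiasmatic nucleus, express these genes rhythmically, and Per1 and Per2 also respond to neuronal activity and glucocorticoids.

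Regulatory sequence next to the start sites is shown for 5 of the members, as examples of windows with and without a clock motif. RefSeq promoter windows (build GRCm38.p6, 250 bases before to 50 bases after a start site) matched 9 of the 10 genes with 13 windows, and Per2 was not matched. The searches covered both strands for the E-box CACGTG and the D-box in the forms TTATGTAA and TTACGTAA. They also covered the ROR motif AGGTCA and the cAMP response element TGACGTCA, and no match overlapped another. The ROR motif is only a part of a full site for REV-ERB and ROR receptors, and full sites were not searched. Capitals mark the searched motif in each line, written 5′ to 3′ on the strand of the gene. Per3 (chr4:151044666-151044915, minus strand) is shown with the 250 bases before its start because it held the D-box 2 times.
Per3: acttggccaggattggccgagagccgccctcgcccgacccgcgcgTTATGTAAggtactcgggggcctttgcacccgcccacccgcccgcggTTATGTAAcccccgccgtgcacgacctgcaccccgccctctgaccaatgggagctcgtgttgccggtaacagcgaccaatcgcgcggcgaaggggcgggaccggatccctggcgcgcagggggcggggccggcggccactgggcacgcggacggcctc
Per1 (chr11:69098763-69098808, plus strand) and Cry1 (chr10:85185089-85185134, minus strand) are shown around the E-box, which no other member's window held.
Per1: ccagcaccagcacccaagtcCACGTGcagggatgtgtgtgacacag
Cry1: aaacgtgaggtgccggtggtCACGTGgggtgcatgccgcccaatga
Nr1d2 (chr14:18239158-18239203, minus strand) is shown around its ROR motif.
Nr1d2: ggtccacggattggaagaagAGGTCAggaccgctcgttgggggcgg
Nr1d1 (chr11:98775378-98775627, minus strand) is shown with the 250 bases before its start, and none of the searched letters occurred in its window. It was picked as the only member lower in lactating mice at an unadjusted p under 0.05 in limma, as given below.
Nr1d1: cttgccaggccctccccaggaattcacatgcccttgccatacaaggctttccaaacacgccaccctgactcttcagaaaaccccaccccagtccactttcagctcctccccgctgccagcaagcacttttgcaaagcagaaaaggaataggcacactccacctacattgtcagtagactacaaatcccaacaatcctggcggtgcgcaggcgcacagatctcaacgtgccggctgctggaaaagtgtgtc

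Of all 32851 windows of this length in the RefSeq table, 7.15% held the E-box, 1.06% a D-box, 16.3% the ROR motif and 1.79% the cAMP response element. Among the members, the E-box was found in the windows of 2 genes, the D-box in 1 and the cAMP response element in 0. The ROR motif was found in 4 (Arntl, Clock, Nr1d2 and Per1). These matches describe letters in short windows, and no test linked them to any measurement.

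The values are PLIER intensities on a linear scale. Differences are lactating minus virgin on the scale of log2(intensity + 16), with limma's p-value from a fit over all 35556 clusters, and an exact two-sided permutation p over the 924 assignments of 6 mice against 6, which cannot go below 0.0022. Per2 and Per3 were higher and Nr1d1 was lower in lactating mice at an unadjusted p under 0.05 in limma, so 3 of the 10 members passed that threshold. Of all clusters 7.95% passed it, 3.26% as higher and 4.69% as lower. The 10 members were chosen with earlier results of these arrays known, so their count is no independent evidence. All 10 members lay above the median intensity, and in a fit of the 17778 clusters above it 6.40% were higher and 2.83% lower. None of the 35556 clusters had a Benjamini-Hochberg adjusted p under 0.05 in limma, whose smallest was 0.0715, and 2828 passed unadjusted. The differences were positive for 7 members and negative for 3, with a median of 0.06 against -0.01 over all clusters. As the tissue was measured in bulk, fewer cells expressing a gene and less RNA per cell cannot be told apart.

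The plot of each clock gene by mouse gives the values behind these counts.

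**Figure D1:**
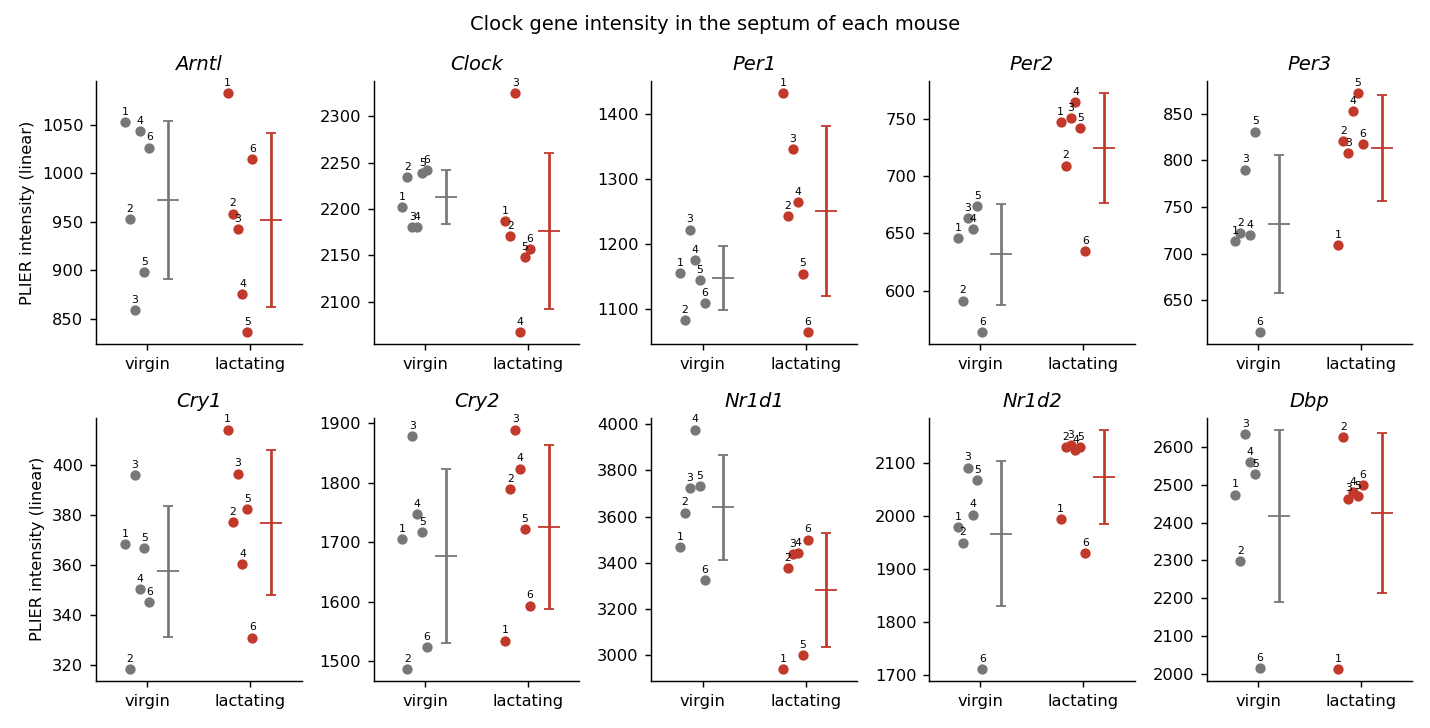
PLIER intensity (linear scale, axes not starting at 0 and set for each gene) of the 10 clock genes in each of 6 virgin (grey) and 6 lactating (red) mice, with the replicate number above each point and the group mean ± SD beside the points. For Per2, 5 of 6 lactating mice lie above every virgin mouse, and for Nr1d1 lactating mice 1 and 5 lie below every virgin mouse.

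The activators of the loop did not pass the threshold. Arntl ranged from 836 to 1083 in lactating mice with a median of 951, and from 859 to 1053 in virgin mice with a median of 990. The group ranges overlapped almost entirely. The difference was -0.03 (SE 0.070, 95% interval -0.18 to 0.12, limma p = 0.664, exact permutation p = 0.669). Clock, the partner of Arntl, ranged from 2067 to 2325 with a median of 2164 in lactating mice and from 2180 to 2242 with a median of 2218 in virgin mice. Of the lactating mice, 4 lay below every virgin mouse and 1, lactating mouse 3, above every one, so the lactating group was the more spread (SD 84.3 against 29.2). Its difference was -0.03 (SE 0.034, 95% interval -0.10 to 0.05, limma p = 0.468, exact permutation p = 0.338). Without lactating mouse 3 it was -0.04 and passed 0.05 in the exact permutation test (p = 0.0130) but not in limma (p = 0.186).

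Among the Period genes, which encode repressors of the ARNTL and CLOCK dimer, all 3 differences were positive. Per2 intensity was 635 at the lowest, 745 at the median and 765 at the highest in lactating mice, and 563, 649.6 and 674 in virgin mice. Thus 5 of 6 lactating mice exceeded every virgin mouse, and lactating mouse 6, at the lowest value, lay inside the virgin range. The mean was 725 ± 48.0 (SD, n = 6) in lactating and 632 ± 44.2 (SD, n = 6) in virgin mice, 14.7% higher in the lactating group. This was a difference of 0.19 (SE 0.057, 95% interval 0.07 to 0.32, limma p = 0.00474, exact permutation p = 0.0108), and the limma p adjusted over all clusters was 0.619. Leaving out each mouse in turn kept the limma p between 0.000709 and 0.0124, and the exact permutation p between 0.0022 and 0.0238. Lactating 3, virgin 2 and virgin 6 lay farthest from the other mice on the main axis of variation (first principal component), and without these 3 the difference was 0.12 (limma p = 0.0568, exact permutation p = 0.0714).

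Per3 intensity in lactating mice ran from 709.6 to 872 with a median of 819, and in virgin mice from 616 to 831 with a median of 721. Only lactating mice 4 and 5 lay above every virgin mouse, and lactating mouse 1 fell below the virgin median. The means were 813 ± 56.4 (SD, n = 6) and 732 ± 73.8 (SD, n = 6), 11.1% higher in lactating mice. The difference of 0.15 (SE 0.069, 95% interval 0.0028 to 0.30) had a limma p of 0.0464, an adjusted p of 0.623 and an exact permutation p of 0.0584, so the exact test did not pass 0.05. The limma call was also lost with quantile normalization, with cyclic loess and in 9 of the 12 fits that left out 1 mouse (all but those without lactating 1, virgin 3 or virgin 5). Without lactating 3, virgin 2 and virgin 6 it was lost as well, at 0.09 (limma p = 0.226, exact permutation p = 0.230).

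Per1 ranged from 1064 to 1432 with a median of 1254 in lactating mice and from 1083 to 1222 with a median of 1149 in virgin mice. Lactating mice 1 to 4 were above every virgin mouse, and lactating mouse 6 was below every one. The mean was 8.94% higher in lactating mice, a difference of 0.12 (SE 0.064, 95% interval -0.02 to 0.26, limma p = 0.0935, exact permutation p = 0.117). This did not pass the threshold, and without lactating mouse 6 it did, at 0.16 (limma p = 0.0134, exact permutation p = 0.0195). Without lactating mouse 1 it was 0.08 (limma p = 0.216, exact permutation p = 0.221), and without lactating 3, virgin 2 and virgin 6 it was 0.06 (exact permutation p = 0.516).

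The Cryptochrome genes, which encode the partners of the PER proteins in repression, did not pass the threshold. Cry1 was between 331 and 414 in lactating mice (median 379.9) and between 318 and 396 in virgin mice (median 359). Cry2 was between 1535 and 1889.6 in lactating mice (median 1756) and between 1487 and 1879 in virgin mice (median 1712). In both genes the ranges of the groups overlapped over most of their width. The differences were 0.07 for Cry1 (95% interval -0.06 to 0.20, limma p = 0.244, exact permutation p = 0.258) and 0.04 for Cry2 (95% interval -0.10 to 0.19, limma p = 0.544, exact permutation p = 0.548).

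The REV-ERB genes had differences of opposite sign, of which only that of Nr1d1 passed the threshold, and the contrast between the genes was not tested. Nr1d1 intensity was 2939 at the lowest, 3406 at the median and 3500.2 at the highest in lactating mice, and 3325, 3669 and 3976 in virgin mice. All 6 lactating mice lay below the virgin median, and lactating mice 1 and 5 lay below every virgin mouse. The means were 3282 ± 246 (SD, n = 6) and 3640.1 ± 227 (SD, n = 6), and the lactating mean stood at -9.84% relative to the virgin mean. The difference was -0.15 (SE 0.058, 95% interval -0.27 to -0.03, limma p = 0.0220, adjusted p = 0.619, exact permutation p = 0.0303). The limma call was lost without lactating mouse 1 (limma p = 0.0520, exact permutation p = 0.0541), without lactating mouse 5 (0.0535 and 0.0498), without virgin mouse 4 (0.0521 and 0.0693), and when each array's median was subtracted (limma p = 0.0666). Over the 12 fits that left out 1 mouse the exact permutation p ran from 0.0108 to 0.0693. Without the 3 mice farthest out the call held, at -0.20 with an exact permutation p of 0.0317. Nr1d1 overlaps the thyroid hormone receptor gene Thra on the opposite strand, and Thra had a difference of 0.05 (limma p = 0.272, exact permutation p = 0.227).

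Nr1d2 lay between 1929.8 and 2132 in lactating mice with a median of 2127, and between 1712 and 2090.3 in virgin mice with a median of 1990.0. Lactating mice 2 to 5 sat within a narrow band above every virgin mouse, while lactating mice 1 and 6 were inside the virgin range. The difference was 0.08 (SE 0.051, 95% interval -0.03 to 0.19, limma p = 0.150, exact permutation p = 0.121). Without virgin mouse 6, the lowest of all 12, it was 0.04 (limma p = 0.363, exact permutation p = 0.262), and without lactating 3, virgin 2 and virgin 6 it was 0.02 (exact permutation p = 0.627). Dbp, whose product is an output activator of the clock, was between 2012 and 2627 in lactating mice (median 2476) and between 2015 and 2635 in virgin mice (median 2501). Its 2 group ranges were nearly the same, with a difference of 0.01 (SE 0.075, 95% interval -0.16 to 0.17, limma p = 0.947, exact permutation p = 0.950).

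**Figure D2:**
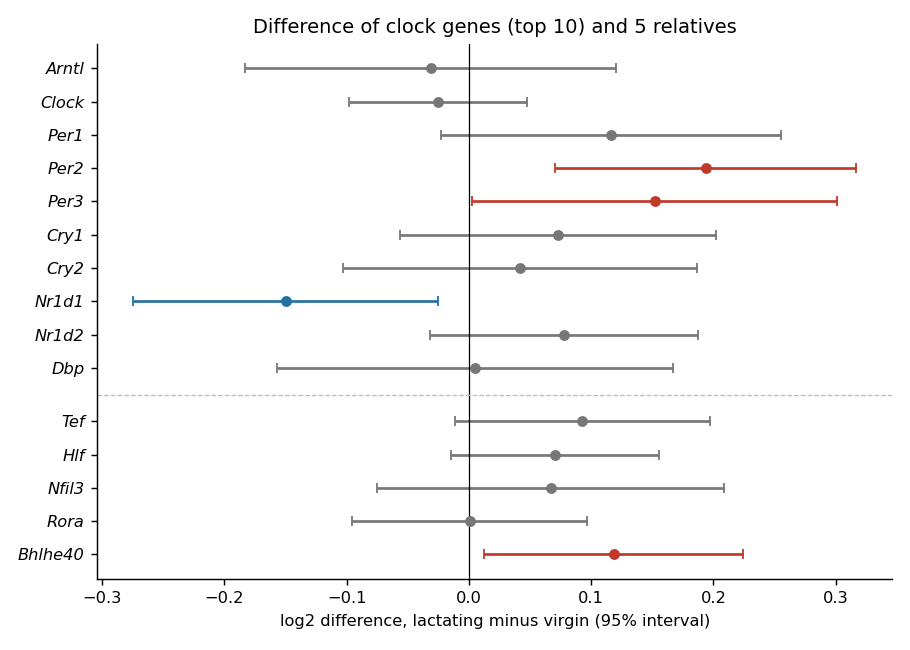
Log2 difference, lactating minus virgin (x axis), for the 10 clock genes and 5 further factors of the loop, with points for the estimate and bars for limma's 95% interval. Red marks higher and blue lower at an unadjusted limma p under 0.05; the intervals of Per2, Per3 and Bhlhe40 lie above 0, that of Nr1d1 lies below it, and the other 11 cross it.

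For each of the 10 members, the range within either group was wider than the difference between the group means. Lactating mouse 1 held the lowest value of its group for 4 genes (Per3, Cry2, Nr1d1 and Dbp) and the highest for 3 (Per1, Cry1 and Arntl). Lactating mouse 6 held the lowest for Per1, Per2, Cry1 and Nr1d2 and the highest for Nr1d1. Virgin mouse 6 was lowest in its group for Per2, Per3, Nr1d1, Nr1d2 and Dbp and highest for Clock. Virgin mouse 3 held the highest value for 5 genes and the lowest for Arntl and Clock. Without lactating mouse 1 and virgin mouse 6 the same 3 genes passed at an unadjusted p under 0.05, with Per2 at 0.15 (limma p = 0.0233, exact permutation p = 0.0397), Per3 at 0.14 (0.0181 and 0.0317) and Nr1d1 at -0.14 (0.0213 and 0.0159).

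**Figure D3:**
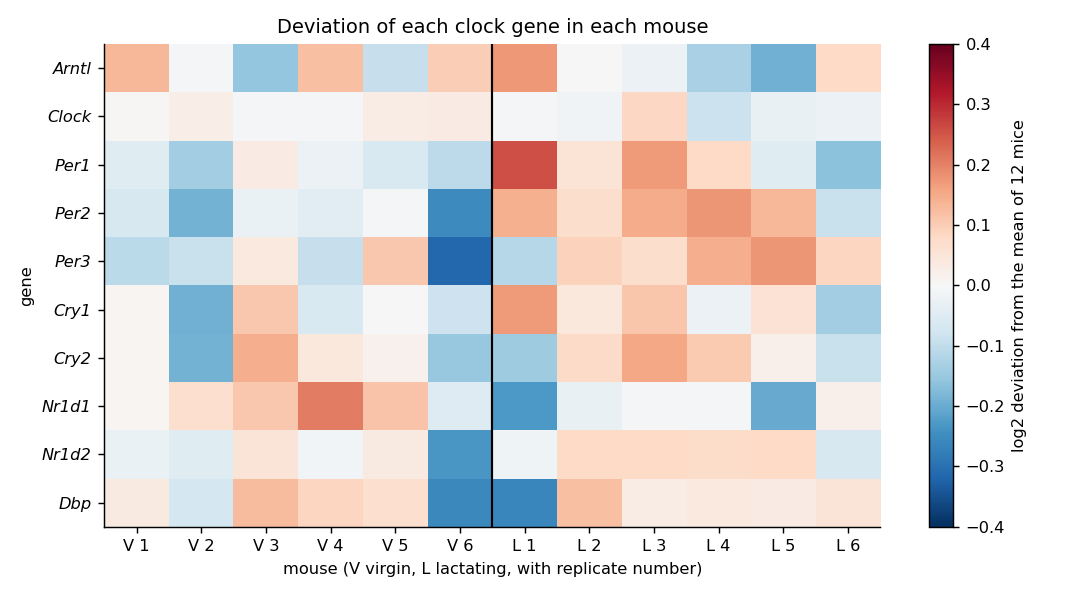
Deviation of each clock gene (rows) in each mouse (columns) from the mean over 12 mice on the log2 scale, in colour from blue (below) to red (above), with virgin mice left and lactating mice right of the black line. Virgin mouse 6 is blue for Per2, Per3, Nr1d2 and Dbp, and lactating mouse 1 is red for Per1, Cry1 and Arntl and blue for Per3, Cry2, Nr1d1 and Dbp.

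Whether the members varied together between mice was examined over all 45 pairs, on log2 values from which each group's mean had been removed, so that the difference between groups did not enter. Pearson's r was positive in 28 pairs. By a permutation test within groups, 8 pairs had a Benjamini-Hochberg adjusted p under 0.05, each at 0.0454, while Spearman's rho gave 0 pairs (smallest adjusted p = 0.0972, and the pairs named below lay between 0.0972 and 0.191). The share of passing pairs among other genes of the arrays was not measured, so the count cannot be read as particular to clock genes. Per1 and Cry1, both repressors, had r = 0.81 over 12 mice (rho 0.70, permutation p = 0.00144 and 0.0202), with 0.86 within lactating and 0.89 within virgin mice, and 0.62 without the 2 mice farthest out in Per1. Per3 and Arntl, a repressor and an activator, had r = -0.78 (rho -0.81, permutation p = 0.00261 and 0.00216), with -0.89 in lactating and -0.73 in virgin mice, and -0.80 without the 2 mice farthest out in Per3. Each of the 8 pairs kept the sign of r within each group.

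The other 6 pairs were positive and linked Per2, Per3, Cry2, Nr1d1, Nr1d2 and Dbp. Per2 and Nr1d2 had r = 0.81 (rho 0.76, permutation p = 0.00306 and 0.0111), and 0.43 without the 2 mice farthest out. Cry2 had r = 0.76 both with Nr1d2 (rho 0.76, permutation p = 0.00505 and 0.0106, 0.88 without the 2 mice) and with Dbp (rho 0.67, permutation p = 0.00468 and 0.0305, 0.67 without them). The remaining 3 pairs fell to an r of 0.55 or less without the 2 mice farthest out, which were virgin 6 and lactating 1 in each of them. Per3 went from 0.84 to 0.32 with Dbp (rho 0.64, permutation p = 0.00725 and 0.0424) and from 0.81 to 0.55 with Nr1d2 (rho 0.81, permutation p = 0.00808 and 0.00744), and Nr1d1 with Dbp went from 0.72 to 0.31 (rho 0.63, permutation p = 0.00706 and 0.0389). The r of Dbp with Per3 and with Nr1d1 was thus lower without these mice. With all mice of a group, Per3 with Dbp had 0.85 in lactating and 0.84 in virgin mice. Nr1d1 with Dbp had 0.70 in lactating and 0.77 in virgin mice. The count of 8 was itself unstable: leaving out 1 mouse gave between 0 and 8 pairs, with 0 pairs after removing lactating mouse 3 or any one of the 6 virgin mice.

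Per2 and Nr1d1, the members with the smallest p-values in opposite directions, had r = 0.10 (rho 0.23, permutation p = 0.765 and 0.500, adjusted p = 0.840 and 0.643). Some pairs had r of unlike sign in the groups, such as Per2 with Dbp (-0.29 in lactating and 0.95 in virgin mice) and Per1 with Dbp (-0.63 and 0.75). With 6 mice in each group these within-group values are given as they are, and the differences between groups were not tested.

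**Figure D4:**
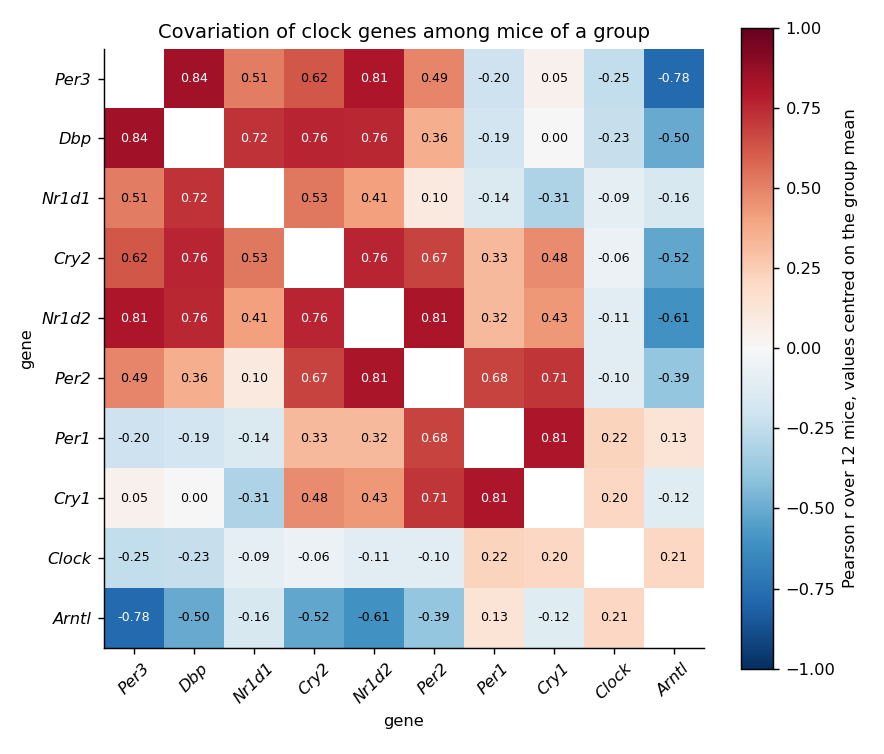
Pearson's r (colour and number in each cell) between every pair of the 10 clock genes over 12 mice, with log2 values centred on each group's mean. Per3, Dbp, Nr1d1, Cry2, Nr1d2 and Per2 form a block of positive values from 0.10 to 0.84, Per1 with Cry1 reaches 0.81, and Per3 with Arntl is at -0.78.

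The genes most like each member across the 12 mice, by Pearson's r on the same group-centred log2 values among clusters with 1 gene symbol, were not other members: no member was among the 3 closest of any other. The closest were Snora7a (0.89), Rnf26 (0.85) and Grap (0.85) for Arntl, and Zfp60 (0.87), Taf4 (0.86) and Cxcr5 (0.84) for Clock. For the Period genes they were Impa1 (0.89), Azin1 (0.88) and Mpp6 (0.87) with Per1, Ak4 (0.94), Erc1 (0.90) and Lmbrd1 (0.90) with Per2, and Uevld (0.92), Otud7b (0.91) and Ikzf5 (0.87) with Per3. Cry1 was closest to Klf9 (0.95), Bahd1 (0.94) and P4ha1 (0.93), and Cry2 to Grin2b (0.95), Adamts17 (0.94) and Osbp (0.94). Nr1d1 was closest to Slc25a12 (0.98), Ddx27 (0.97) and Supt3 (0.95), Nr1d2 to Rftn2 (0.92), Stox1 (0.89) and Csmd3 (0.89), and Dbp to Pak7 (0.93), Slc39a3 (0.92) and Asl (0.92). Klf9, a transcription factor gene that responds to glucocorticoids and to the clock, was the one gene among these that also stood in the lists below. These are the highest values out of all single-symbol clusters and are given as a description. Partners in the positive member pairs that passed the permutation test stood farther down among the 21788 other clusters. They ran from rank 10 (Dbp for Per3) to rank 575 (Nr1d2 for Cry2).

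Other genes of the clock, with glucocorticoid-responsive and immediate early genes, were counted from 7 lists holding 80 genes. Of these, 73 were measured by a cluster with 1 symbol. At an unadjusted limma p under 0.05, 12 of the 73 were higher and 1 lower, against 3.26% and 4.69% of all clusters. The glucocorticoid-responsive list held 9 of the higher genes and the lower one. Of the 73 genes 64 lay above the median intensity, where the shares of higher and lower clusters were 6.40% and 2.83%. The lists were chosen with results of these arrays known, so the counts are no independent evidence, and none of the genes had an adjusted p under 0.05. Npas2, the paralog of Clock, was not analysed here.

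Among further transcription factors of the loops, 1 of 11 measured genes was higher and 0 were lower. Bhlhe40 (DEC1), which competes with the ARNTL and CLOCK dimer for E-boxes, had 1088 ± 74.9 in lactating and 1000.2 ± 43.2 in virgin mice (SD, n = 6 each), a difference of 0.12 (limma p = 0.0312, exact permutation p = 0.0325). Its limma call was lost with quantile normalization, with cyclic loess and without lactating 1, lactating 4, virgin 1 or virgin 2. The D-box factors related to DBP did not pass, with Tef at 0.09 (limma p = 0.0758, exact permutation p = 0.0693) and Hlf at 0.07 (0.0975 and 0.0541), nor did the D-box repressor Nfil3 at 0.07 (0.326 and 0.407). Rora, an activator of Arntl, was at 0.00 (limma p = 0.991, exact permutation p = 0.996). Timeless was at -0.10 (limma p = 0.0575, exact permutation p = 0.0476). Of the kinases, phosphatases and ubiquitin enzymes that act on clock proteins 0 of 12 passed, the smallest limma p-values being those of the casein kinase gene Csnk1e at 0.05 (limma p = 0.0910, exact permutation p = 0.00649) and the deubiquitinase gene Usp2 at 0.06 (0.246 and 0.255). Of the cofactors 0 of 10 passed, with the deacetylase gene Sirt1 at 0.10 (limma p = 0.0794, exact permutation p = 0.0649) and the RNA-binding protein gene Sfpq at 0.10 (0.109 and 0.108).

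Among the light and activity inputs 1 of 8 was higher, Crem, a cAMP-responsive factor gene, at 0.11 (limma p = 0.0276, exact permutation p = 0.0195), and Creb1 was at 0.06 (0.166 and 0.130). Immediate early genes, which neuronal activity induces, showed 0 of 11 called, with Fosb at 0.14 (limma p = 0.243, exact permutation p = 0.325) and Btg2 at -0.10 (0.317 and 0.392). The clock-controlled output genes had 4 of 13 higher and 0 lower, against 3.26% and 4.69% of all clusters. These were Tsc22d3 (GILZ), at 671 ± 77.3 against 501 ± 58.1 and a difference of 0.41 (limma p = 0.000445, exact permutation p = 0.00433), Sgk1 at 0.32 (0.0161 and 0.0173), Pdk4 at 0.13 (0.0131 and 0.00433) and Klf15 at 0.13 (0.0238 and 0.0303). All 4 are also known to be induced by glucocorticoids, and 3 of them, Tsc22d3, Sgk1 and Pdk4, stood in both lists.

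The glucocorticoid-responsive genes had 9 of 13 measured members higher and 1 lower, with a median difference of 0.14. Of all clusters 3.26% were higher and 4.69% lower, and of those above the median intensity 6.40% and 2.83%. This list too was chosen with results of these arrays known, so its count is no independent evidence. Zbtb16, a transcription factor gene, was at 782 ± 196 in lactating and 552 ± 76.3 in virgin mice (SD, n = 6 each), a difference of 0.47 (limma p = 0.00397, exact permutation p = 0.00433). Fkbp5, a cochaperone of the glucocorticoid receptor, differed by 0.14 (limma p = 0.0315, exact permutation p = 0.0238), Bcl6 by 0.19 (0.0136 and 0.0216), Errfi1 by 0.13 (0.0317 and 0.0390) and Ddit4 by 0.12 (0.0262 and 0.0260). Sult1a1 differed by 0.23 (limma p = 0.0343) and did not pass the exact permutation test (p = 0.0671). Mt2, a metallothionein gene, was the lower one at -0.11 (limma p = 0.00706, exact permutation p = 0.00433). The other measured genes of the list did not pass. Nfkbia was at 0.16 (limma p = 0.0584, exact permutation p = 0.0844), Klf9 at 0.10 (0.0879 and 0.0996) and Mt1 at -0.01 (0.816 and 0.833). Leaving out 1 mouse at a time ended the limma call in 7 of 12 fits for Sult1a1, in 5 each for Crem, Errfi1 and Fkbp5, in 4 for Klf15 and in 3 for Ddit4, and in 0 for Tsc22d3, Sgk1, Pdk4, Zbtb16, Bcl6 and Mt2. Errfi1 also lost it with quantile normalization, cyclic loess and array weights. Without lactating 3, virgin 2 and virgin 6, 3 genes of the 7 lists passed in place of 13 (Tsc22d3, Sgk1 and Zbtb16), and without lactating mouse 1 and virgin mouse 6 it was 6.

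**Figure D5:**
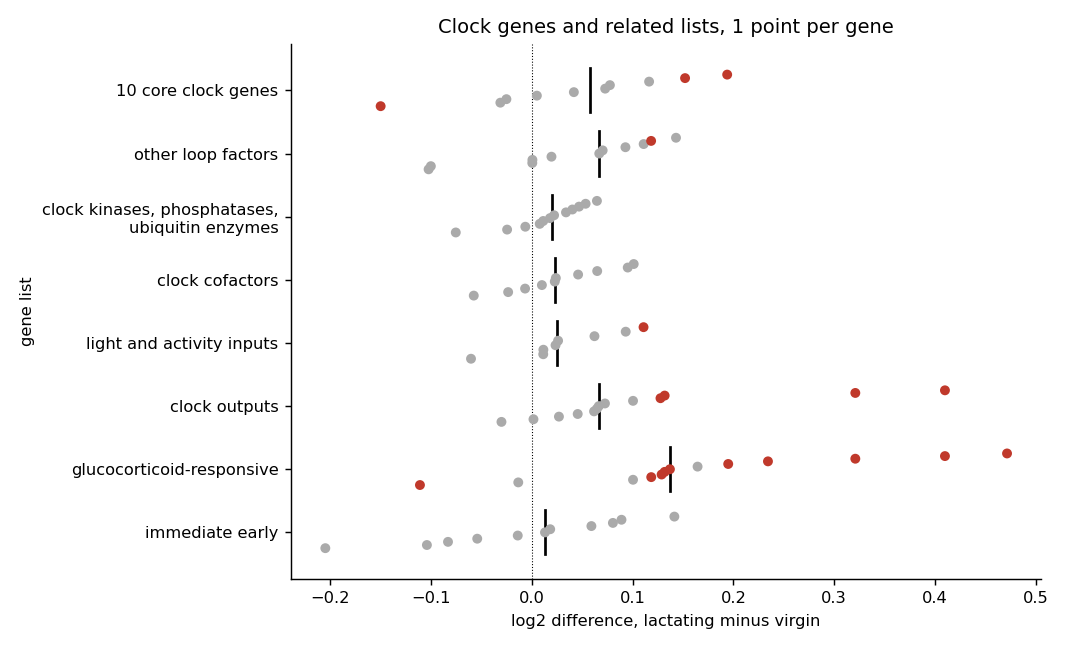
Log2 difference, lactating minus virgin (x axis), for every measured gene (1 point each) of the 10 clock genes and 7 related lists, with the list median as a black bar and red for an unadjusted limma p under 0.05 in either direction. The medians lie between 0.01 and 0.14, the highest in the glucocorticoid-responsive genes, and no point of the immediate early genes, cofactors or clock enzymes is red.

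Array medians ran from 319.6 to 339, and the log2 values of any 2 arrays correlated at 0.987 to 0.994. Of the clusters called, 1160 were higher and 1668 lower, but this split moved with the scaling, to 2027 and 992 after subtraction of each array's median. Lateral septum is named in the deposited protocol and the whole septum in the study's methods. Markers of inhibitory neurons summed to 15487 to 17331 in lactating and 15438 to 17335 in virgin mice, and 0 of 3 were called, nor were any of 8 septum markers. Markers of cortical and hippocampal excitatory neurons, 0 of 5 called, summed to 2409 to 7904 in lactating and 2573 to 4024 in virgin mice, and those of striatal projection neurons, 0 of 4 called, to 7005 to 11711 and 9637 to 12066. All 5 excitatory differences were positive, with a median of 0.49, and all 4 striatal differences were negative, with a median of -0.16. Of 3 blood markers only Alas2 was measured by a cluster with 1 symbol. It was higher in lactating mice, at 0.31 (limma p = 0.0180, exact permutation p = 0.0433). Single markers were lower in lactating mice in 3 other lists: Cx3cr1 of microglia at -0.11 (limma p = 0.0482), where all 6 lactating mice lay below every virgin mouse and the exact permutation p was the smallest it can be, Ccdc153 of ependyma at -0.13 (limma p = 0.0381, exact permutation p = 0.0476) and Slc4a5 of choroid plexus at -0.12 (0.0498 and 0.0563). The lists they stand in had 1 of 5, 1 of 4 and 1 of 6 genes called, with sums of 2741 to 3048 against 2714 to 3599 for microglia, 1920.3 to 2277 against 2031 to 2318 for ependyma and 1453 to 1619 against 1396 to 1566 for choroid plexus. In these lists the differences had both signs: 2 positive and 3 negative for microglia, 2 and 2 for ependyma, 4 and 2 for choroid plexus. Suprachiasmatic nucleus markers summed to 1462 to 1783 in lactating and 1446 to 1717.5 in virgin mice, with 0 of 5 called. No value of any cluster was 0 (the lowest was 3e-05), so a value above 0 does not show that a marker was expressed. The part of neighbouring tissue, blood or other cell types in the clock gene differences was not tested.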

How the data were processed

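The deposited values of the 12 arrays are linear intensities that the authors summarised per transcript cluster and normalized with PLIER and a GC-bin background correction in Affymetrix Power Tools 1.12.0. To each, 16 was added and the log2 taken, and 496 clusters with a mean below 16 have compressed differences. Groups were compared in R 4.3.3 with limma 3.58.1 (lmFit, eBayes, two-sided, no filter), with Benjamini-Hochberg adjustment over 35556 clusters, of which 21789 carry 1 gene symbol, 1621 several and 12146 no gene. Symbols were updated by Entrez identifier to RefSeq GRCm38.p6, which held 99.6% of them. The brightest cluster of a gene was used. Exact permutation tests, and 100000 permutations within groups for correlations, were run in Python 3.11.15. The fit was tested on simulated data. The number of arrays limits the precision. The labels give no batch, no estrous stage and no extraction pair. By the study's methods, RNA was prepared in pairs of 1 virgin and 1 lactating mouse. The virgin mice were in estrus, diestrus I or diestrus II (2 each), and none was in proestrus. Which mouse had which stage, partner or time of removal is not known here. The clock genes and lists were chosen with earlier results of these data known. Named are all 10 members, list genes at p under 0.05 (up to 2 by smallest p where a list had fewer), Tef, Hlf, Nfil3, Rora and the 3 closest patterns of each member. Thra, Nfkbia, Mt1, Alas2, Cx3cr1, Ccdc153 and Slc4a5 were named outside this rule, after their values were seen. The residuals of a lactating and a virgin mouse sharing a number had r from -0.03 to 0.25, over 0.1 in 2 of 6 cases, so numbers were not treated as pairs. Alternatives were linear values, an added value of 1, bright or single-symbol clusters, quantile, median or cyclic loess scaling, trended robust variance, array weights, the mean over a gene's clusters, a replicate block and each array left out. The removal of lactating 3, virgin 2 and virgin 6 (farthest on the first principal component), the removal of lactating 1 with virgin 6, and all alternatives for the correlations were chosen after seeing the data.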

Additional observations from a re-analysis of the deposited data

Results flagged for a closer look

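Within each group of 6 mice, the highest and the lowest mouse were compared with the rest for the 10 clock genes and the 13 related genes with an unadjusted p under 0.05, a total of 46 groups, and in 5 of them 1 mouse stood apart by Dixon's criterion (gap over range above 0.625). Chance alone gives about 1 in 20. Nr1d2 in virgin mouse 6 was 1711.82, against 1949.26 in the next lowest virgin mouse (gap over range 0.627). Dbp in lactating mouse 1 was 2012.49, against 2463.28 in the next lowest lactating mouse (0.734). Lactating mouse 6 was the lowest of its group for Fkbp5, at 484.666 with the next at 527.493 (0.635), and for Sult1a1, at 236.478 with the next at 325.498 (0.677). Zbtb16 in lactating mouse 4 was 1167.06, against 756.571 in the next highest lactating mouse (0.732).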

How the results depend on the processing

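The sign of the difference held in all 25 settings for Per1, Per2, Per3, Cry1, Clock, Nr1d1 and Nr1d2, in 24 for Cry2 and Arntl and in 15 for Dbp. Per3 lost its call with quantile normalization (0.14) and cyclic loess (0.13), and Nr1d1 with subtraction of each array's median (-0.13). Among clusters above the median intensity 1642 were called, 504 of them lower, and subtraction of the median gave 2027 higher and 992 lower. Without lactating 3, virgin 2 and virgin 6, 1177 clusters (515 higher, 662 lower), 1 member and 3 list genes were called, and Per2 stood at 0.12 and Per3 at 0.091. Without lactating mouse 1 and virgin mouse 6, 6 list genes and 5 correlated pairs were called and Per1 stood at 0.067, and with quantile normalization 1 pair.

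Leaving out each mouse gave 1864 to 4058 clusters (782 to 1783 higher, 1054 to 2599 lower), with 1864 without lactating 3, 1783 higher without virgin 4, and 1082, 1054 and 2599 lower without lactating 3, virgin 2 and virgin 3. It gave 1 to 3 members (1 without lactating 5 or virgin 4), 8 to 16 list genes (8 without virgin 1 or 2) and 0 to 8 correlated pairs. The differences ranged from 0.08 to 0.16 for Per1, 0.16 to 0.23 for Per2, 0.10 to 0.19 for Per3, -0.18 to -0.12 for Nr1d1, 0.04 to 0.10 for Nr1d2 and -0.04 to -0.01 for Clock. With the replicate block, 3 members and 11 list genes were called with Per2 at 0.19, Per3 at 0.15 and Nr1d1 at -0.15, and no member changed its call, while Klf15, Ddit4 and Sult1a1 lost theirs. The cause of these changes was not tested, and fewer arrays or clusters were fitted in the settings that leave some out.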
